A study of Mus musculus with 16 samples.

Results

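The livers of SHP-/- mice were compared with those of wild-type mice at 3 weeks of age, with bead arrays from Illumina (mouse Ref-8, version 1.1). The comparison rests on 4 of the 16 arrays of the series, 2 per group, all on slide 1. Every probe with a detection p-value under 0.01 on both arrays of either group was kept, which gave 9883 of 24613 probes and, with the brightest probe standing for each gene, 7382 genes. The detection p-value ranks a probe among the negative control probes of its own array. The series also holds FXR-/- and FXR-/-SHP-/- (double knockout) livers, and each of the 4 genotypes was sampled at 3 and 5 weeks with 2 arrays a group.

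All mice were males of the C57BL/6 strain kept on normal chow, and RNA came from whole liver. SHP-/- mice carry a deletion of Nr0b2 and had been backcrossed to C57BL/6. Wild-type mice came from a commercial supplier while the knockouts were bred in the laboratory, so the source of the animals and the genotype cannot be told apart. The labels give no number of backcross generations, no litter and no hour of collection. Samples were hybridized in duplicate and the labels do not say that the arrays of a group are separate animals. P-values therefore rest on the spread between arrays within groups, pooled over the 8 groups and moderated, and that spread may be technical.

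SHP, the small heterodimer partner, is an orphan nuclear receptor that lacks a DNA-binding domain and acts mainly as a repressor of other nuclear receptors. In liver it is induced when bile acids activate FXR (Nr1h4), and it restrains LRH-1 and HNF4-alpha on genes such as Cyp7a1 and Cyp8b1, so that bile acids limit their own synthesis. It has also been described as a regulator of lipid synthesis, gluconeogenesis, drug-metabolizing genes and the cell cycle in liver.

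The arrays do not allow a check of the deletion through Nr0b2 RNA. The probe of Nr0b2 gave raw signals of 32.0 and 32.8 on the wild-type arrays and 33.6 and 30.3 on the SHP-/- arrays, with detection p-values of 0.77, 0.69, 0.62 and 0.86, and it was also not detected on any of the other 12 arrays. The wild-type level and the knockout level were thus both within the negative controls, whose means were 35.9 to 36.6 on these 4 arrays. Nr1h4, which should be intact in both groups, had a log2 intensity of 10.98 and 10.92 in wild type and 11.14 and 11.16 in SHP-/-, a difference of 0.20 ± 0.11 (adjusted p = 0.25).

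Hepatocyte markers were bright on all 4 arrays, so liver RNA was present, which does not show that it was the only tissue. Of 17 measured hepatocyte markers 1 rose, 1 fell and 15 did not pass, and their mean log2 intensity was 11.70 and 11.72 in wild type and 11.77 and 11.76 in SHP-/-. Transthyretin (Ttr) was at 13.30 and 13.45 in wild type and 13.47 and 13.35 in SHP-/-, and the probe of albumin (Alb) was dim on all 4 arrays but detected. The 4 arrays had 9769 to 9991 detected probes (39.7% to 40.6%) and mean signals of 194.8 to 221.9. Duplicates differed by a median of 0.0959 (wild type) and 0.102 (SHP-/-) on the log2 scale, and arrays of different genotype by 0.165 to 0.167. Only 2 genes in wild type and 1 in SHP-/- lay more than 1 log2 unit apart between duplicates, against 127 to 135 across genotypes. The number of arrays limits the precision.

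Genes of neighbouring organs separated the groups most widely and are given before the liver results. Values after ± are standard errors of the log2 difference, SHP-/- minus wild type, with n = 2 arrays per group, and a gene is said to rise or fall where its adjusted p from limma was under 0.05 over all 7382 genes. All 19 measured markers of exocrine pancreas were lower in SHP-/-, against 6.6% of all genes that fell, and their mean log2 intensity was 7.27 and 7.27 in wild type and 5.20 and 5.21 in SHP-/-. Ctrb1, the precursor of chymotrypsin, was 9.05 and 8.94 in wild type and 4.34 and 4.33 in SHP-/-, where it was not detected, a fall of at least 17.4-fold (adjusted p = 2.4e-15). Of 12 gastric and intestinal markers 10 were lower and 2 did not pass, with means of 7.07 and 7.02 in wild type and 4.97 and 5.00 in SHP-/-. Tff2, a trefoil peptide of the stomach, fell from 11.96 and 11.97 to 4.91 and 5.35 (-6.84 ± 0.14, adjusted p = 8.2e-16), the largest difference of any gene tested. Gkn3, another gastric mucosal peptide, fell by 4.59 ± 0.14.

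Skeletal muscle markers ran the other way. Of 18 measured members 17 rose, against 7.11% of all genes, and 1 did not pass. Their mean log2 intensity was 4.77 and 4.80 in wild type and 6.03 and 6.01 in SHP-/-. Acta1, skeletal muscle actin, was 4.94 and 5.02 in wild type and 8.50 and 8.38 in SHP-/- (3.46 ± 0.09, adjusted p = 7.1e-15), and Atp2a1, the calcium pump of fast muscle, was not detected in wild type and was at least 3.87-fold higher in SHP-/-. Of the tested members, 15 pancreas and 6 gut markers had passed the detection filter through wild type alone and 12 muscle markers through SHP-/- alone, so the filter itself favoured a difference in these lists. In whole liver, fewer cells of a type and less RNA per cell cannot be told apart. The part of these tissues in any other gene was not tested, and these 3 lists are kept apart below.

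In all, 1012 of 7382 genes (13.7%) passed, 525 higher (7.11%) and 487 lower (6.6%) in SHP-/-. The counts of the gene lists below are to be read beside these shares of all genes. The lists, those above included, were chosen with earlier results of these data known, so a called share above that of all genes may follow in part from the choice. Most changes were small: the median fold among the called genes was 1.39, and 375 of the higher and 297 of the lower genes changed by less than 1.5-fold. At least 2-fold differences were called for 125 genes (1.69%), 40 higher and 85 lower, of which 9 and 24 belong to the muscle, pancreas or gut lists. At least 4-fold changes were fewer still, 7 higher and 26 lower. Arrays of the groups did not overlap for 58.7% of all tested genes, so that property alone says little with 2 arrays a side. Leaving out any 1 of the 4 arrays left 544 to 570 called genes, and 124 to 131 of at least 2-fold.

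**Figure D1:**
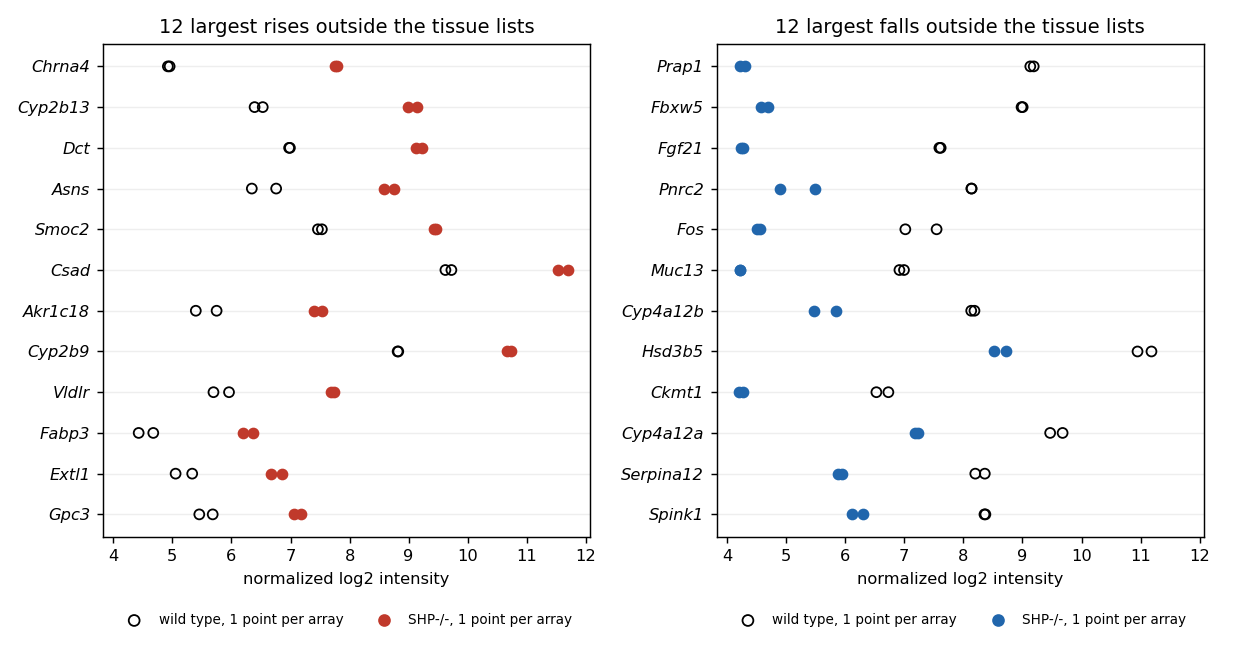
Normalized log2 intensity (x axis) of the 12 genes with the largest rises (left) and the 12 with the largest falls (right) outside the muscle, pancreas and gut lists. Open circles are the wild-type arrays and filled circles the SHP-/- arrays, 1 point per array. The 24 genes were picked among called genes whose arrays do not overlap, so the gap between groups follows from the choice. Of the 12 fallen genes 6 were detected on neither SHP-/- array.

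Among the largest rises, female-type cytochromes, enzymes of amino acid metabolism and genes with no settled role in hepatocytes stood side by side. Chrna4, a subunit of the neuronal nicotinic acetylcholine receptor, rose from 4.95 and 4.92 to 7.78 and 7.75 (2.83 ± 0.16, adjusted p = 6.9e-10). Dct, the melanin enzyme dopachrome tautomerase, went from 6.98 and 6.99 to 9.23 and 9.12 (2.19 ± 0.09). Smoc2, a secreted calcium-binding matrix protein, rose by 1.95 ± 0.10 and Akr1c18, a hydroxysteroid dehydrogenase that inactivates progesterone, by 1.89 ± 0.12. These genes were picked among called genes whose arrays do not overlap between groups. Fabp3, the fatty acid binding protein of heart and muscle, was not detected in wild type and was at least 2.61-fold higher in SHP-/-, beside the muscle markers above.

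The largest falls outside the tissue lists included further genes known from gut epithelium. Prap1, a proline-rich secreted protein, was 9.19 and 9.13 in wild type and 4.30 and 4.23 in SHP-/- and fell at least 19.5-fold, and the mucin Muc13 fell from 6.995 and 6.92 to 4.23 and 4.22, at least 4.22-fold. Neither was detected in SHP-/-, and both moved with the gastric and intestinal markers. Ckmt1, a mitochondrial creatine kinase, fell at least 3.37-fold. Spink1, a trypsin inhibitor made by pancreas and by liver, fell by 2.15 ± 0.11 (8.37 and 8.36 in wild type and 6.12 and 6.30 in SHP-/-). Serpina12 (vaspin), a serpin known as an adipokine, fell by 2.36 ± 0.09 from 8.20 and 8.36 to 5.95 and 5.89. Fbxw5, a subunit of an E3 ubiquitin ligase, was 8.99 and 9.004 in wild type and 4.58 and 4.69 in SHP-/-, but its standard error over the 8 groups was 1.33 since duplicates of other groups lay far apart (4.46 and 4.47 in wild type and 8.85 and 4.38 in SHP-/- at 5 weeks), and its call (adjusted p = 0.038) was lost without any of the 4 arrays. Apoh, an abundant plasma glycoprotein, shows the same hazard: it read 11.08 and 10.81 in wild type but 11.05 and 4.11 in SHP-/-, where only the first array detected it, and it did not pass (adjusted p = 0.10).

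Bile acid synthesis, the pathway SHP is best known for, changed in both directions. Of 14 measured genes of synthesis and conjugation 2 rose, 2 fell and 10 did not pass. The called share was 28.6% against 13.7% over all genes, and the median difference was -0.12 against 0.006. Cyp7a1, the rate-limiting enzyme of the classical pathway, was 9.91 and 9.80 in wild type and 10.50 and 10.63 in SHP-/-, a rise of 0.71 ± 0.10 or 1.64-fold (adjusted p = 9.3e-05). Cyp8b1, the sterol 12-alpha-hydroxylase that sets the share of cholic acid, was 11.93 and 11.98 in wild type and 13.02 and 12.88 in SHP-/-, up by 0.99 ± 0.08 or 1.99-fold (adjusted p = 1.2e-07). For each enzyme both SHP-/- arrays lay above both wild-type arrays, as in all 525 genes that rose.

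Cyp7b1 and Cyp27a1, hydroxylases of the alternative pathway, fell. Cyp7b1, the oxysterol 7-alpha-hydroxylase, fell from 9.01 and 9.09 to 7.97 and 8.06 (-1.03 ± 0.12, adjusted p = 6.2e-06). Cyp27a1, the mitochondrial sterol 27-hydroxylase, was 11.20 and 11.17 in wild type and 10.86 and 10.85 in SHP-/- (-0.33 ± 0.08, adjusted p = 0.012), a call that was lost when any of the 4 arrays was left out. Cyp7b1 is also a male-biased gene in mouse liver and is counted again below. The other 10 enzymes lay between -0.27 and 0.07. Among them were Cyp2c70, which makes muricholic acids in mice (-0.18 ± 0.07, adjusted p = 0.12), and the conjugating enzymes Slc27a5 (0.07 ± 0.07) and Baat (-0.04 ± 0.24). The rest were Akr1c6, Scp2, Slc27a2, Acox2, Acot8, Cyp39a1 and Hsd3b7.

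Several transporters of bile acids and sterols rose. Of 15 measured members 7 rose, 1 fell and 7 did not pass, with a median of 0.30. Abcg8, a part of the canalicular sterol exporter, rose from 8.02 and 7.92 to 8.73 and 8.70 (0.74 ± 0.09, adjusted p = 1.1e-05), and its partner Abcg5 rose by 0.44 ± 0.09. Abcc3, an exporter of conjugates toward blood, rose by 0.68 ± 0.10. The uptake carriers Slco2b1 and Slc10a1 rose by 0.49 ± 0.09 and 0.49 ± 0.15. The call of Slc10a1 (adjusted p = 0.032) was lost without wild-type replicate 1, wild-type replicate 2 or SHP-/- replicate 2. Abcb4, the phospholipid flippase, rose by 0.30 ± 0.07. The subunits of the basolateral bile salt exporter went apart, with Slc51b at 0.35 ± 0.11 (adjusted p = 0.039) while Slc51a fell and was not detected in SHP-/-, a fall of at least 1.09-fold.

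Genes of fatty acid and triglyceride synthesis rose broadly. Of 19 measured 12 rose, 1 fell and 6 did not pass (68.4% called, against 13.7% of all genes), and the median difference was 0.44. The leading 3, Scd1, Thrsp and Fasn, which encode the stearoyl desaturase, a lipogenic regulator and fatty acid synthase, rose by 0.95, 0.92 and 0.91. In the same list, Acss2 (acetyl-CoA synthetase) went from 10.43 and 10.45 to 11.25 and 11.32 (0.84 ± 0.08, adjusted p = 5.5e-07). Acly, which makes cytosolic acetyl-CoA from citrate, rose by 0.74 ± 0.08, and the elongases Elovl6 and Elovl5 rose by 0.79 ± 0.10 and 0.65 ± 0.08. Mlxipl (ChREBP), a glucose-responsive activator of the same genes, rose by 0.57 ± 0.10, Agpat2 and Dgat2, late steps of triglyceride assembly, by 0.44 ± 0.11 and 0.34 ± 0.08, and the desaturase Fads1 by 0.33 ± 0.09. Pnpla3, a lipid droplet protein, was not detected in wild type and was at least 1.56-fold higher in SHP-/-.

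The member that fell was Pparg, the fat-storage receptor, from 6.55 and 6.41 to 5.88 and 5.79 (-0.64 ± 0.14, adjusted p = 0.0046), and this call was lost without wild-type replicate 1 or SHP-/- replicate 2. Cholesterol synthesis and uptake had 5 of 19 members higher, 0 lower and a median of 0.13. Lss and Dhcr7, enzymes of the later sterol pathway, rose by 0.51 ± 0.09 and 0.51 ± 0.08, and Mvd by 0.49 ± 0.12 (adjusted p = 0.014), a call lost without any of the 4 arrays. The smaller rises of Insig2 (0.29) and Tm7sf2 (0.28) were each lost in at least 3 of the 4.

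Of 21 genes of lipoproteins and their receptors 3 rose, 4 fell and 14 did not pass. Vldlr, the very low density lipoprotein receptor, rose from 5.70 and 5.96 to 7.73 and 7.69 (1.88 ± 0.13, adjusted p = 6.6e-09), and the receptors Lrp1 and Scarb1 rose by 0.58 ± 0.09 and 0.53 ± 0.11. Apob, the structural protein of very low density lipoprotein, fell from 11.11 and 11.14 to 10.40 and 10.31 (-0.77 ± 0.07, adjusted p = 3.5e-07), and Mttp, which loads lipid onto it, fell by 0.27 ± 0.08 (adjusted p = 0.04). Angptl4, an inhibitor of lipoprotein lipase, fell by 0.98 ± 0.08 and Lpl, the lipase, by 0.40 ± 0.08. Receptors thus rose while the secretory members and the lipase fell, by the calls of these 7 genes.

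Fatty acid oxidation had 1 of 24 members higher, 3 lower and a median of -0.11. Its called share was 16.7%, against 13.7% over all genes. Fgf21, a hormone of fasting and of protein restriction, was 7.62 and 7.59 in wild type and 4.24 and 4.27 in SHP-/-, where it was not detected, a fall of at least 6.62-fold (adjusted p = 2.3e-12). Acot3, a peroxisomal thioesterase, rose by 1.04 ± 0.15, while Plin2 (-0.28) and Acadl (-0.45) fell by little and lost their calls in 3 and 4 of the 4 fits without an array. Among 13 genes of gluconeogenesis and glycolysis 2 rose and 2 fell. Ppargc1a, a coactivator of gluconeogenesis, rose by 0.66 ± 0.09 and Fbp1 by 0.33 ± 0.07, whereas G6pc, glucose 6-phosphatase, fell from 12.42 and 12.50 to 11.99 and 11.91 (-0.51 ± 0.09, adjusted p = 4.8e-04) and Ldha by 0.32 ± 0.08. Both Fbp1 and Ldha lost their calls without wild-type replicate 2 or SHP-/- replicate 2, and Ldha also without SHP-/- replicate 1.

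Amino acid catabolism and the urea cycle were mostly higher in SHP-/-. Of 29 measured genes 18 rose, 0 fell and 11 did not pass, which is 62.1% called against 13.7% of all genes. The median difference was 0.33. The mean log2 intensity of the 29 was 10.53 and 10.53 in wild type and 10.89 and 10.90 in SHP-/-. The count was 10 without SHP-/- replicate 1 and 11 without wild-type replicate 1. Csad, which makes hypotaurine on the way to taurine, the amino acid that mice conjugate to bile acids, rose from 9.62 and 9.72 to 11.69 and 11.52 (1.94 ± 0.10, adjusted p = 9.5e-11), a 3.83-fold change.

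The other rises were in several pathways. Cth, which makes cysteine from cystathionine, was 8.89 and 8.83 in wild type and 9.95 and 10.09 in SHP-/- (1.15 ± 0.16, adjusted p = 7.9e-05). Bhmt, which remethylates homocysteine, rose by 0.86 ± 0.15, and Gnmt, the main methyl-group sink of liver, by 0.74 ± 0.13 from 11.03 and 10.98 to 11.69 and 11.80. Afmid, the kynurenine formamidase of tryptophan breakdown, rose by 1.11 ± 0.09, and Haao in the same pathway by 0.30 ± 0.08. Prodh and Aldh4a1 for proline (0.53 and 0.35), Uroc1, Ftcd and Amdhd1 for histidine (0.46, 0.39 and 0.26) and Hpd and Hgd for tyrosine (0.36 and 0.33) all rose. So did the transaminases Gpt2, Gpt and Agxt (0.78, 0.31 and 0.34), and Ass1 and Asl of the urea cycle (0.38 and 0.50). Outside Csad, Cth and Afmid each of these rises was under 1 on the log2 scale.

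**Figure D2:**
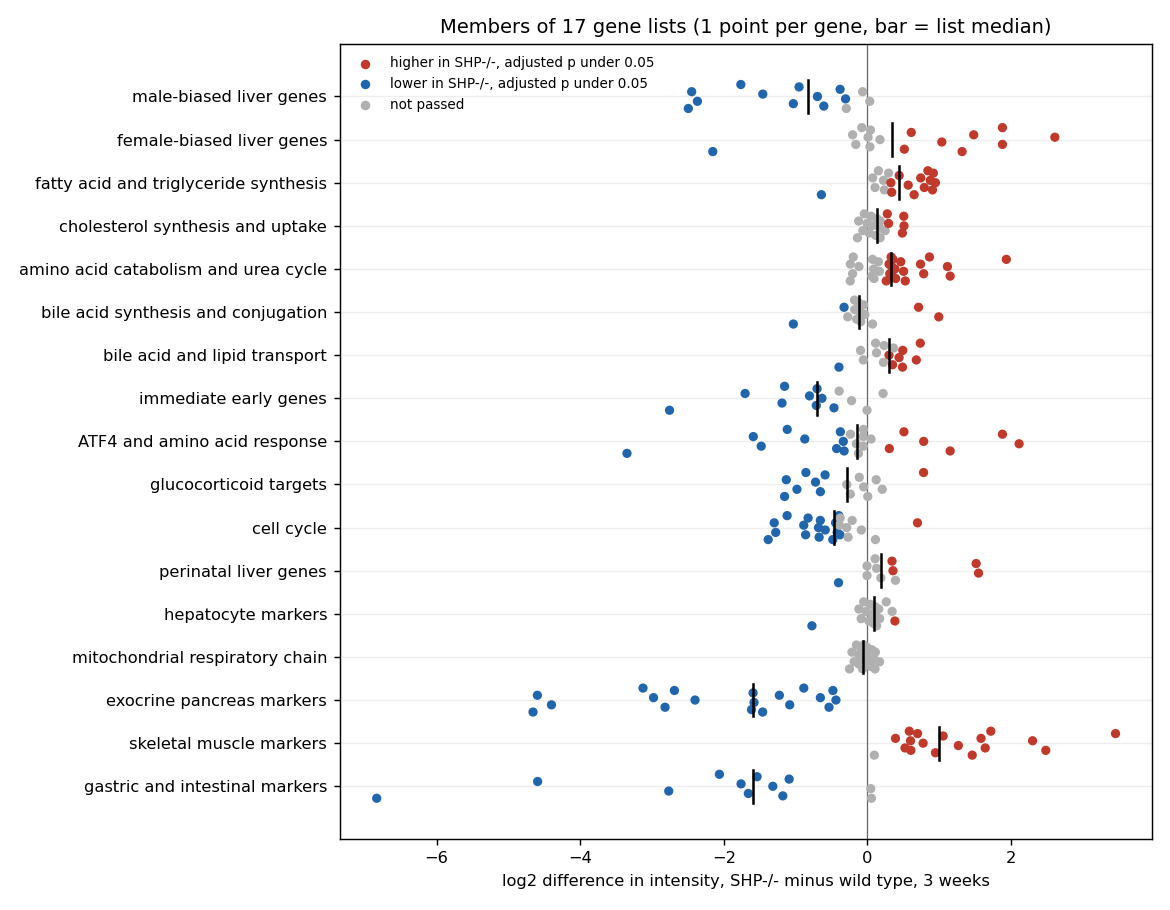
Log2 difference in intensity, SHP-/- minus wild type (x axis), of every tested member of 17 gene lists (rows). Each point is a gene, red where it rose, blue where it fell and grey where it did not pass, and the black bar is the list's median. The amino acid list has no blue point and the male-biased list no red point, the ATF4 list reaches from -3.35 to 2.11, and all 25 respiratory chain genes are grey; genes not detected in a group are drawn at their fitted value.

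Targets of ATF4, the transcription factor that answers amino acid shortage and other stresses, were split. Of 22 measured 6 rose, 9 fell and 7 did not pass, with a median of -0.14, and 3 of the 22 had passed the detection filter through wild type alone. Asns, asparagine synthetase, rose from 6.34 and 6.76 to 8.58 and 8.75 (2.11 ± 0.12, adjusted p = 5.5e-10), and Trib3, a pseudokinase induced by ATF4, rose by 0.51 ± 0.09. Vldlr, Cth and Gpt2, which are described above, also count among the rises, and Shmt2 rose by 0.31 ± 0.09. Chac1, which degrades glutathione, fell from 7.83 and 7.87 to 6.30 and 6.22 (-1.59 ± 0.13, adjusted p = 9.6e-08). Mthfd2, a mitochondrial folate enzyme, fell by 1.48 ± 0.13, Nupr1, a stress-induced chromatin protein, by 1.12 ± 0.16 and Psat1, of serine synthesis, at least 1.37-fold. Atf5 (-0.43), Ddit3 (-0.38), Cebpb (-0.34) and Sars (-0.32) fell by less, and Fgf21 completes the falls.

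The opposite directions were set beside the promoter letters of these genes. The 8 letters TGATGNAA, in either orientation, are the core of the composite ATF4 and C/EBP element, and the promoters are shown because they hold that match in genes that rose as well as in genes that fell. Of 19 tested genes of the ATF4 list with a promoter in the RefSeq table (GRCm38.p6, 250 bases before to 50 after the gene's start), 8 held the match: Asns, Vldlr and Trib3, which rose, Fgf21, Chac1 and Nupr1, which fell, and Gars and Aars, which did not pass. The share was 3.97% of all 32851 promoters, 2.2% of those of tested genes, 2.14% of those of genes that rose and 2.11% of those of genes that fell. In the promoters below the capitals mark the match, and a match is a description of the letters, not of binding. The promoters lie at chr6:7693160-7693459, minus strand (Asns), chr19:27216770-27217069, plus strand (Vldlr, the further downstream of its 2 listed starts), chr7:45615441-45615740, minus strand (Fgf21) and chr2:119350992-119351291, plus strand (Chac1), with matches beginning 23, 200, 139 and 193 bases before the start.
Asns: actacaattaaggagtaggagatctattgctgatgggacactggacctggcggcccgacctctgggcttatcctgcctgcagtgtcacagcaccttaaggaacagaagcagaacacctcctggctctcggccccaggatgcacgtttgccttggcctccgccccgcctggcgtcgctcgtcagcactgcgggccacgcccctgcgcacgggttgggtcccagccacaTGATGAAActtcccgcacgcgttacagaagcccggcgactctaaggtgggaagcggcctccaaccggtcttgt
Vldlr: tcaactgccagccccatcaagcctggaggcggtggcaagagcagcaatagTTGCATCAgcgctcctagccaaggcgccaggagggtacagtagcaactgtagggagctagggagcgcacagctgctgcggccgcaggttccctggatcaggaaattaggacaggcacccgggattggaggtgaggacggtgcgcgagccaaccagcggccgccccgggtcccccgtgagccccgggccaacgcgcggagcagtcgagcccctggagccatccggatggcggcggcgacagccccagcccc
Fgf21: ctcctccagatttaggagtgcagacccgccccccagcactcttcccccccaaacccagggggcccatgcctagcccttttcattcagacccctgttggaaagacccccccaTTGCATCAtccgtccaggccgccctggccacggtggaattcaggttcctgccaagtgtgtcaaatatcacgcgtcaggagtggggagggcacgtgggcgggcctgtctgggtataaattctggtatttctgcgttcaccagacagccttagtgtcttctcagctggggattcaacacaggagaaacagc
Chac1: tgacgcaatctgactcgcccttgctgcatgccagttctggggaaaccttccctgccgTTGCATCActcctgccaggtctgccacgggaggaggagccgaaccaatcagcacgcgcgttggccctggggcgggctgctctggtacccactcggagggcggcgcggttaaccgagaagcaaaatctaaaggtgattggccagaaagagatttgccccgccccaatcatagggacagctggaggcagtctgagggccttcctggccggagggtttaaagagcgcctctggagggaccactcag

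Of 3 further sets of letters searched on both strands, AAGGTCA (the LRH-1 type) was in 3.56% of promoters of genes that rose and 5.05% of those of genes that fell, against 3.65% of the tested genes' promoters. TTCNNNGAA (the STAT5 type) was in 5.52% and 9.26% against 6.92%, and TCACNCCAC (the SREBP type) in 1.25% and 1.47% against 1.22%. AAGGTCA contains letters shared by the sites of other nuclear receptors.

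Of genes listed as sex-biased in mouse liver, most male-biased members fell and 8 of 16 female-biased members rose in these males at 3 weeks. How far sex bias was established at this age was not tested. Of 14 measured male-biased genes 11 fell, 0 rose and 3 did not pass (78.6% called, against 13.7% of all genes). Their median was -0.82, and their mean log2 intensities were 10.46 and 10.44 in wild type and 9.42 and 9.36 in SHP-/-. The fatty acid hydroxylase Cyp4a12b fell from 8.19 and 8.13 to 5.85 and 5.48 and its neighbour Cyp4a12a from 9.68 and 9.47 to 7.18 and 7.23. These near-identical copies can share signal. Hsd3b5, a male-specific steroid dehydrogenase, was 10.95 and 11.18 in wild type and 8.72 and 8.52 in SHP-/-. Elovl3, an elongase, was not detected in SHP-/- and fell at least 2.53-fold, the complement component C9 fell by 1.46 ± 0.11, and Nudt7, a peroxisomal hydrolase, by 0.95 ± 0.15. Ugt2b1, Cyp2d9, C6 and Gstp1 fell by 0.70, 0.61, 0.38 and 0.30.

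Of 16 female-biased genes 8 rose, 1 fell and 7 did not pass, with a median of 0.34. Cyp2b13, a cytochrome known as female-specific, was 6.39 and 6.53 in wild type and 9.15 and 8.997 in SHP-/-. Cyp2b9 was 8.82 and 8.81 in wild type and 10.66 and 10.74 in SHP-/-. In wild type at 5 weeks Cyp2b13 was not detected and Cyp2b9 had a mean of 5.25. Changes with age in the other listed genes of wild type were not tested. Prom1, a membrane glycoprotein, rose by 1.48 ± 0.13 and Hamp2, a paralog of hepcidin, from 10.29 and 10.13 to 11.61 and 11.44 (1.32 ± 0.09). Sult2a2, a bile acid sulfotransferase, rose by 0.51 ± 0.10, and Vldlr, Acot3 and Cyp17a1 complete the rises. The member that fell was Spink1, which pancreas also makes. The Y-linked genes Eif2s3y and Kdm5d were detected on all 4 arrays and did not pass (adjusted p = 0.26 and adjusted p = 0.11).

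Sex-typed liver expression in mice follows the pattern of growth hormone pulses through STAT5, and that axis was measured too. Of 15 members 1 rose, 3 fell and 11 did not pass. Socs2, a STAT5 target that damps growth hormone signalling, fell from 10.89 and 10.88 to 9.18 and 9.20 (-1.69 ± 0.12, adjusted p = 1.9e-08). Bcl6, a male-biased repressor in liver, fell by 0.64 ± 0.09 and Igfbp2 by 0.53 ± 0.10. Cish, another STAT5 target, was the member that rose (7.77 and 7.76 in wild type and 8.09 and 8.28 in SHP-/-, 0.42 ± 0.09), a call lost without SHP-/- replicate 2. Socs2 and Cish, both targets of STAT5, thus changed in opposite directions.

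Immediate early genes were lower in SHP-/-. Of 13 measured 9 fell, 0 rose and 4 did not pass (69.2% called, against 13.7% of all genes), and the median was -0.70. Fos, a part of the AP-1 factor, was 7.02 and 7.55 in wild type and 4.55 and 4.50 in SHP-/-, where it was not detected, a fall of at least 5.3-fold. Jun fell by 1.70 ± 0.15, the growth arrest gene Gadd45g by 1.19 ± 0.11, the phosphatase Dusp1 from 10.88 and 10.91 to 9.68 and 9.80, and Zfp36, Junb, Egr1, Rhob and Klf6 by 0.81, 0.71, 0.70, 0.63 and 0.47. Of the 13 members 2 had passed the detection filter through wild type alone, and where detection on all 4 arrays was required 7 of 11 fell. These genes are known to respond within minutes to many stimuli.

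Glucocorticoid targets fell with them, 7 of 15 while 1 rose and 7 did not pass, with a median of -0.29. Beside Dusp1 and Angptl4, the falls were Cdkn1a, a cell cycle inhibitor (-1.13 ± 0.12), Tsc22d3 (GILZ, -0.86 ± 0.13), Sgk1 (-0.66 ± 0.09) and the metallothioneins Mt2 (-0.72 ± 0.09) and Mt1 (-0.59 ± 0.07). Serpina6, the corticosteroid-binding globulin of plasma, rose from 9.32 and 9.56 to 10.30 and 10.14 (0.78 ± 0.13, adjusted p = 2.7e-04). Of 10 circadian clock genes 4 rose, 0 fell and 6 did not pass. Per2 was 6.34 and 6.34 in wild type and 7.51 and 7.43 in SHP-/- (1.13 ± 0.12), and Dbp and Tef rose by 0.93 ± 0.11 and 0.56 ± 0.08. The smaller rise of Cry2 (0.46 ± 0.15, adjusted p = 0.047) was lost without wild-type replicate 2, where the difference was 0.29, or SHP-/- replicate 2, where it was 0.24.

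Cell cycle genes were lower, with 16 of 24 measured members down, 1 up and 7 not passed. The called share was 70.8%, against 13.7% of all genes, and the median was -0.46. The count was 10 without wild-type replicate 2 or SHP-/- replicate 2, and 5 of the 24 had passed the detection filter through wild type alone. Cdca3, a mitotic entry factor, fell from 7.77 and 7.78 to 6.30 and 6.49 (-1.38 ± 0.11, adjusted p = 1.0e-07). Cdc20, an activator of the anaphase-promoting complex, fell by 1.30 ± 0.14, Prc1, which bundles spindle microtubules, by 1.28 ± 0.18, and the mitotic kinases Aurka and Plk1 at least 1.86-fold and by 0.86 ± 0.16. Tk1, thymidine kinase, rose by 0.70 ± 0.11. The falls of leading members did not recur at 5 weeks. There Cdca3 rose by 0.63, and Cdc20 and Aurka, not detected in wild type, rose at least 1.74- and 1.14-fold in SHP-/-. Birc5, which fell by 0.89 at 3 weeks, did not pass at 5 weeks (0.37). The list as a whole was not tested for a difference between ages. Among 11 perinatal liver genes 4 rose, 1 fell and 6 did not pass. Gpc3, an oncofetal proteoglycan, was 5.46 and 5.68 in wild type and 7.06 and 7.18 in SHP-/-, and Igf2, the fetal growth factor, was 5.87 and 5.81 in wild type and 7.30 and 7.41 in SHP-/-. The rises of Cdkn1c (0.36) and Igf2bp3 (0.34) were lost without any of the 4 arrays.

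Targets of the xenobiotic receptors CAR and PXR went both ways, with 4 of 23 higher, 5 lower and 14 not passed. Cyp2b10, a CAR target, rose from 5.86 and 5.70 to 6.81 and 6.94 (1.09 ± 0.15), and Nr1i2, which encodes PXR itself, rose by 0.40 ± 0.09, a call lost without wild-type replicate 2 or SHP-/- replicate 2. The cytochromes Cyp2c55, Cyp2c29 and Cyp2c54 fell by 1.29, 0.56 and 0.42, of which the call of Cyp2c29 was lost without any of the 4 arrays. Nuclear receptors and partners as a list were near the background, with 2 of 23 higher and 1 lower. NRF2 targets had 1 of 21 higher and 1 lower, which were Gsta4 (0.39) and Ephx1 (-0.66), the former lost in 3 of the 4 fits without an array. Of 26 sulfotransferases, glucuronosyltransferases and glutathione transferases 3 rose and 5 fell, led by Ugt2b1 and by Gstt3 (0.67 ± 0.13).

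Steroid and retinoid metabolism had 6 of 17 members higher and 2 lower. Cyp17a1, a steroid 17-alpha-hydroxylase, was 7.19 and 7.23 in wild type and 7.86 and 7.78 in SHP-/- (0.61 ± 0.10, adjusted p = 5.4e-04), and Cyp26b1, which degrades retinoic acid, was 7.11 and 7.25 in wild type and 8.34 and 8.37 in SHP-/- (1.18 ± 0.12, adjusted p = 8.9e-07). Rdh11, a retinol dehydrogenase, rose by 0.62 ± 0.07, and Hsd17b2, which inactivates estradiol, fell by 0.56 ± 0.12. Of 9 thyroid hormone targets 2 rose and 3 fell: Thrsp and Cyp7a1 rose as given above, while Fgf21, Serpina7, the thyroxine-binding globulin (-1.12 ± 0.11), and Dio1, a deiodinase (-0.75 ± 0.12), fell. A collection of 33 reported SHP and FXR targets had 12 rises, 4 falls and 17 not passed, with a median of 0.12, and Sdc1, the heparan sulfate receptor syndecan 1, went from 7.47 and 7.59 to 8.39 and 8.32.

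Plasma protein lists went both ways. Of 28 acute phase genes 5 rose and 4 fell (32.1% called), of 31 complement and coagulation genes 2 rose and 4 fell (19.4%), and of 23 genes of iron, heme and metals 4 rose and 3 fell (30.4%), against 13.7% called over all genes. Their medians were 0.07, -0.03 and 0.01. Hepcidin (Hamp), the iron hormone, rose from 10.002 and 9.93 to 10.72 and 10.69 (0.74 ± 0.10), Orm2, an acid glycoprotein, by 0.97 ± 0.09, and C8b, of the complement attack complex, fell by 0.65 ± 0.08. Tfrc, the transferrin receptor, rose by 0.57 ± 0.13 (adjusted p = 0.0058), a call lost without wild-type replicate 2 or SHP-/- replicate 2. Of 16 ER chaperone and ER stress genes 0 rose and 3 fell, led by Herpud1 (-0.83 ± 0.08), and of 9 heat shock genes Hsph1 rose (0.47) and Hspb1 fell (-0.65).

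Housekeeping groups differed in their share of called genes, which is to be read beside 13.7% called and 6.6% lower among all genes. The respiratory chain lay below these shares, the ribosomal list near them and the proteasome list above them. None of 25 respiratory chain genes passed by limma, 2 had an unadjusted p under 0.05, and their median was -0.06. Of 16 cytosolic ribosomal protein genes 1 rose and 1 fell. Of 21 proteasome genes 0 rose and 4 fell, led by Psma7 at -0.33, and each of these 4 calls was lost without at least 2 of the 4 arrays. The proteasome median was -0.21 and 11 members had an unadjusted p under 0.05. Its lowest member, Psmc1, was at -1.97 ± 1.19, with 1 of 2 SHP-/- arrays detected, and did not pass (adjusted p = 0.32). Markers of other cells in liver were also examined. Of 17 macrophage and neutrophil markers 1 rose and 5 fell, with S100a8 at -0.59 ± 0.12, a call lost without SHP-/- replicate 1, and Lyz2, lysozyme, at -0.58 ± 0.11. Endothelial markers had 0 of 20 higher and 2 lower, Fcgr2b (-0.56 ± 0.10) and Clec4g (-0.47 ± 0.09), both known from sinusoids. Stellate cell and matrix markers had 0 of 16 higher and 1 lower, lymphocyte markers 0 of 10 and 2, erythroid markers 3 of 9 and 1, interferon genes 1 of 18 and 3, and 1 of 5 adipose and skin markers rose, which was Scd1. Of 14 cholangiocyte markers 3 were measured and none passed, and none of 5 genes known to differ between C57BL/6 substrains was among the tested genes.

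Whether these differences recur was examined in 2 comparisons that share no array with the one at 3 weeks: SHP-/- against wild type at 5 weeks, on slide 2, and double knockout against FXR-/- at 3 weeks, which removes SHP from livers that lack FXR. All 3 were taken from the same fit and share its estimate of each gene's spread, so their calls are not independent. Of the 525 genes that rose at 3 weeks, 122 also rose at 5 weeks and 18 fell. Of the 487 that fell, 78 also fell at 5 weeks and 57 rose. On the FXR-null background 131 of the 525 rose and 58 fell, and 97 of the 487 fell and 43 rose. Among all tested genes 657 (8.9%) passed at 5 weeks and 1154 (15.6%) on the FXR-null background. Age and slide cannot be told apart. The FXR-/- arrays stood apart in a Y-linked gene: Eif2s3y was 4.30 and 4.17 without FXR and 7.51 and 7.01 without both receptors at 3 weeks and was not detected on any FXR-/- array of either age, while Kdm5d, also Y-linked, was detected on both FXR-/- arrays at 5 weeks and on no FXR-/- or double knockout array at 3 weeks. The part of such differences between the FXR-/- and other mice in the FXR-null values was not tested. The double knockout replicate 2 had a weak labelling control (biotin 1850.6 against 2834.2 to 3249.5 on the other arrays of the slide).

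**Figure D3:**
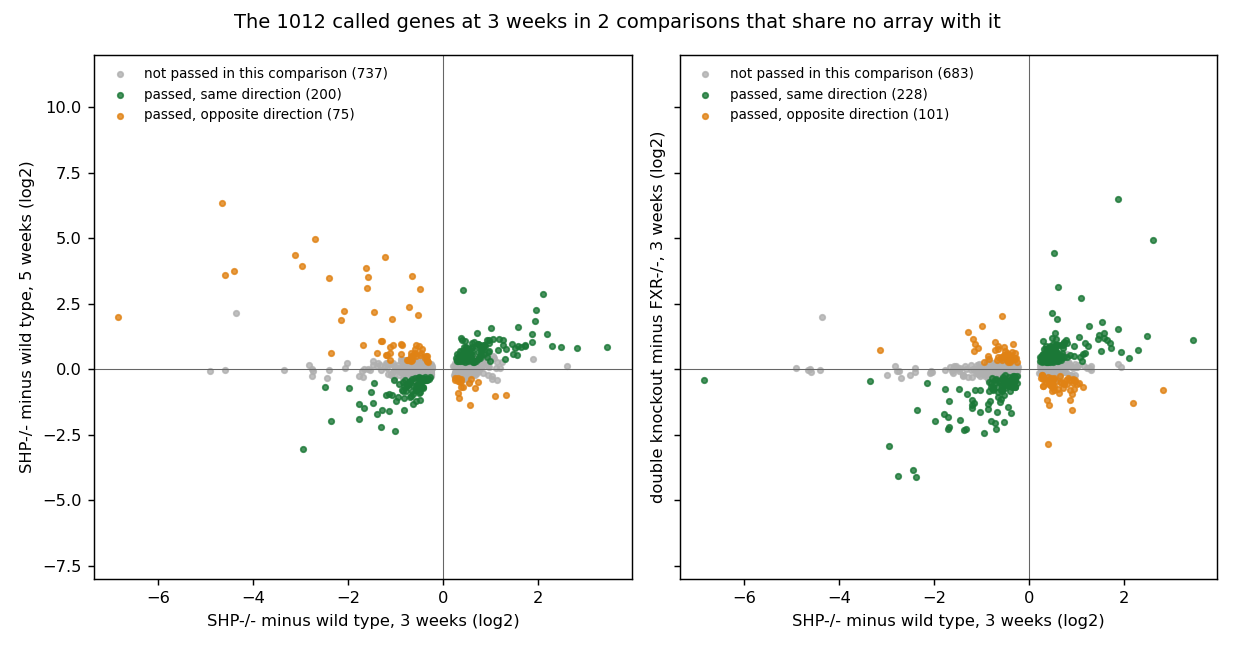
Log2 difference of the 1012 genes called at 3 weeks (x axis) against their difference at 5 weeks (left, y axis) and between double knockout and FXR-/- at 3 weeks (right, y axis). Each point is a gene, green where it also passed in the same direction, orange where it passed in the opposite one and grey where it did not pass. The numbers of green and orange genes are 200 and 75 on the left and 228 and 101 on the right, and genes not detected in a group are drawn at their fitted value.

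The difference itself was tested for each gene. It passed for 608 of 7382 genes (8.24%) between ages and for 875 (11.9%) between FXR-null and FXR-intact livers. Cyp7a1 rose more at 5 weeks, at 1.38 ± 0.10 against 0.71 ± 0.10 at 3 weeks (difference 0.67 ± 0.15, adjusted p = 0.007), and on the FXR-null background it fell (-0.70 ± 0.10, difference -1.42 ± 0.15, adjusted p = 2.1e-06). Cyp8b1 rose less at 5 weeks (0.32 ± 0.08, difference -0.67 ± 0.12, adjusted p = 0.0012) and was 0.08 ± 0.08 on the FXR-null background (difference -0.91 ± 0.12, adjusted p = 3.1e-05). Cyp17a1 was -0.03 ± 0.10 at 5 weeks (difference -0.64 ± 0.15, adjusted p = 0.011), while on the FXR-null background it rose by 3.12 ± 0.10 (difference 2.51 ± 0.15, adjusted p = 1.5e-09). Cyp7a1 thus rose at both ages with FXR present and fell without it, whereas Cyp8b1 rose at both ages and did not pass without FXR.

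Tissue markers were among the genes that differed between ages. Of the 608 genes, 101 had at least 1 group in which neither array detected them, and a difference that rests on such a group is given as a bound. Ctrb1 was lower in SHP-/- at 3 weeks and higher at 5 weeks, where it read 4.33 and 4.29 in wild type and 10.64 and 10.66 in SHP-/- and was not detected in wild type. Its difference between ages was at least 9.86 on the log2 scale (adjusted p = 1.2e-18). Tff2 likewise was higher at 5 weeks (4.89 and 5.10 in wild type and 6.90 and 7.07 in SHP-/-, detected on 1 of the 2 wild-type arrays, difference 8.83 ± 0.20). Cela2a, a pancreatic elastase, had a difference of 7.64 ± 0.16, and Reg1, Zg16 and Pnliprp1, also pancreatic, had differences of at least 7.66, 7.04 and 6.98. Cyp2b13 passed this test (adjusted p = 8.3e-10) but was detected in neither group at 5 weeks, so no effect can be given for it there. Hamp2 rose at 3 weeks and fell at 5 weeks (-0.97 ± 0.09, difference -2.29 ± 0.13, adjusted p = 3.7e-10), as did Cyp2b10 (-1.03 ± 0.15, difference -2.12 ± 0.22, adjusted p = 2.6e-06).

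On the FXR-null background Chrna4 and Dct fell. Dct was 7.79 and 7.91 without FXR and 6.54 and 6.56 without both receptors (difference -3.49 ± 0.12, adjusted p = 6.5e-13) and Chrna4 had a log2 difference of -0.79 ± 0.16 (difference -3.62 ± 0.23, adjusted p = 4.4e-09). The lipogenic gene Thrsp also changed direction, at 10.54 and 10.73 without FXR and 8.83 and 9.29 without both receptors (difference -2.49 ± 0.17, adjusted p = 1.1e-08). Serpina1e and Mgst1, an antitrypsin and a microsomal glutathione transferase, did not pass with FXR intact (-0.07 ± 0.08 and -0.12 ± 0.12) and rose on the FXR-null background (5.01 ± 0.08 and 5.12 ± 0.12), where the FXR-/- arrays were low (7.33 and 7.73 without FXR and 12.85 and 12.46 without both receptors for Mgst1). The difference of Apoh, at least 8.49 (adjusted p = 0.0021), rests on an FXR-/- group in which it was not detected and on SHP-/- duplicates that lay far apart. Of the 875 genes, 114 had at least 1 group in which neither array detected them.

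A further set of genes changed alike in all 3 comparisons, and many of its members lie near the deleted gene. In all, 81 of 7382 genes (1.1%) passed in the same direction in all 3, 51 higher and 30 lower, of which 17 were muscle markers and 17 lie on chromosome 4, where Nr0b2 lies. Genes were ranked by their order along chromosome 4 among protein-coding genes of GRCm38.p6. Within 100 places of Nr0b2, 86 genes were tested, 25 passed at 3 weeks (29.1%) and 13 passed alike in all 3 comparisons (15.1%). On the rest of chromosome 4, 53 of 374 passed at 3 weeks (14.2%) and 4 in all 3 (1.07%), and outside chromosome 4 the shares were 13.5% and 0.925%. Within 10 places only 6 genes were tested and 1 passed. Of these 13 genes Gpn2, Pnrc2, Extl1, Fabp3 and Cd52 were named by a rule, while the other 8 and the band of 100 places were singled out after their values were seen.

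Pnrc2, a coactivator of nuclear receptors with a role in mRNA decay, lies 52 places from Nr0b2 and had the largest of these differences. It was 8.14 and 8.14 in wild type and 4.90 and 5.49 in SHP-/- at 3 weeks (-2.94 ± 0.15, adjusted p = 1.7e-10), 8.33 and 8.41 in wild type and 5.47 and 5.19 in SHP-/- at 5 weeks (-3.05 ± 0.15), and 7.79 and 7.90 without FXR and 5.02 and 4.79 without both receptors at 3 weeks (-2.94 ± 0.15). In each comparison both arrays without SHP lay at least 2 log2 units below both arrays with it. Gpn2, a small GTPase 2 places away, was 7.76 and 7.99 in wild type and 6.65 and 6.70 in SHP-/- (-1.20 ± 0.11, adjusted p = 2.3e-07), with -0.99 ± 0.11 at 5 weeks and -1.36 ± 0.11 on the FXR-null background.

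The others are given in the order 3 weeks, 5 weeks and FXR-null. Eya3, a transcriptional coactivator and phosphatase, was not detected in SHP-/- at 3 weeks, a fall of at least 3.07-fold, and was -1.92 and -1.71 in the other two comparisons. Bsdc1 was -1.67, -1.49 and -1.22. Cep85, a centrosome protein, was -0.67, -1.03 and -1.65, and Tcea3 -0.56, -0.78 and -0.74. Xkr8, a phospholipid scramblase of dying cells, was -0.83 and -1.55 and, not detected in the double knockout, fell at least 1.76-fold on the FXR-null background. Cd52, Smpdl3b and Zbtb8os, which complete the 10 that fell, were detected in none of the 3 groups without SHP. Their falls were at least 1.45-, 1.52- and 1.69-fold for Cd52, 1.24-, 1.04- and 1.19-fold for Smpdl3b, and 1.1-, 1.2- and 1.15-fold for Zbtb8os. Extl1, a glycosyltransferase of the heparan sulfate family, rose by 1.57 at 3 weeks. It was not detected in wild type at 5 weeks or in FXR-/- at 3 weeks, where its rises were at least 2.64- and 1.88-fold. Selenon, a selenoprotein, rose by 0.61, 0.70 and 0.49. Fabp3 rose at least 2.61-fold at 3 weeks and by 0.92 and 0.81 in the other two comparisons, beside muscle markers such as the troponin Tnnc2 (1.72, 0.89 and 0.996), and the part of muscle in its values was not tested. The call of Cd52 at 3 weeks was lost without wild-type replicate 1 or SHP-/- replicate 1. Whether the knockouts differ from wild type in the sequence around Nr0b2 was not tested.

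**Figure D4:**
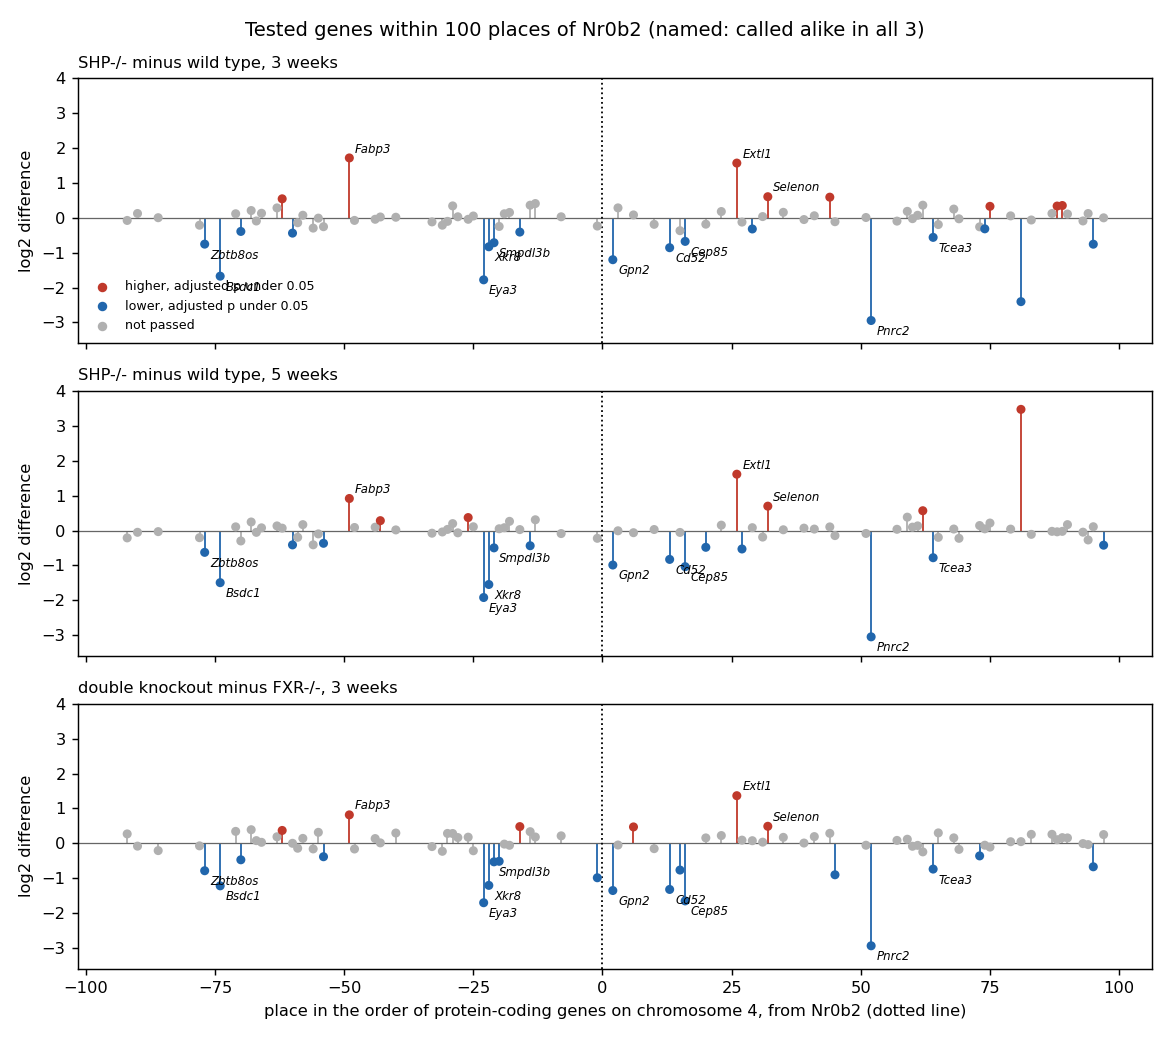
Log2 difference (y axis) of the tested genes within 100 places of Nr0b2 in the order of protein-coding genes on chromosome 4 (x axis), in 3 comparisons that share no array. Red points rose, blue points fell and grey points did not pass; the 13 named genes passed in the same direction in all 3. The depth of Pnrc2, about -3 in each panel, and the height of Extl1 recur, while most grey neighbours lie near 0. Genes not detected in a group are drawn at their fitted value.

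Away from chromosome 4 and muscle, Asns, Csad and Cyp2b9 were among the genes that rose in all 3 comparisons. Asns rose by 2.85 ± 0.12 at 5 weeks and 0.42 ± 0.12 on the FXR-null background, Csad by 1.85 ± 0.10 and 0.65 ± 0.10, and Cyp2b9 by 1.33 ± 0.10 at 5 weeks and at least 62.2-fold on the FXR-null background, where FXR-/- arrays did not detect it. Igf2, Cyp26b1, Scarb1, Lss and Dhcr7 rose in all 3 as well, at 0.80, 1.14, 0.40, 0.57 and 0.38 at 5 weeks, and so did Gpc3, at least 1.21-fold at 5 weeks, where wild type did not detect it. Serpina12 and C9 fell in all 3, at -1.97 ± 0.09 and -0.54 ± 0.11 at 5 weeks and -1.56 ± 0.09 and -1.95 ± 0.11 on the FXR-null background. Most genes did not recur: of the 1012 called at 3 weeks, 737 did not pass at 5 weeks and 75 passed in the opposite direction. Acss2 (-0.17) and Afmid (0.02) did not pass at 5 weeks. Of the male-biased Cyp4a12 genes, Cyp4a12a rose by 0.60 there while Cyp4a12b fell by 0.70. Jun did not pass at 5 weeks, whereas Zfp36 and Egr1 fell in all 3.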

How the data were processed

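Biotin-labelled RNA from whole liver was hybridized to bead arrays, and the authors deposited the mean bead intensity of each probe, its bead standard error and a detection p-value, exported from BeadStudio without normalization per the file headers. Aligner and genome build do not apply, and background subtraction is not given in the sources used here. A table of log2 values that the authors deposited, with equal quantiles in every column, served as a check. Its transform and centring are not stated, and all 16 of its columns correlated best with their own array (r from 0.989 to 0.995). The 16 columns of bead numbers were not used.

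Intensities of all 16 arrays were background corrected with the negative controls and quantile normalized by neqc (limma 3.58.1, R 4.3.3, offset 16). Of 24613 probes, 20984 had 1 gene symbol in the platform annotation, 1 had several and 3628 had none. Of 9883 probes kept at a detection p-value under 0.01, 8752 had 1 gene, and the brightest of a gene's probes was used. Among 196 further probes of called genes 170 had the same sign and 3 were called with the opposite sign. A mean per group was fitted to all 8 groups, with 8 residual degrees of freedom, and moderated by eBayes with a variance trend. P-values were adjusted by the method of Benjamini and Hochberg over 7382 genes, with 0.05 as the threshold. The fit was tested on simulated data. A gene detected on neither array of a group is given as a bound, its brighter group against the higher of the dim probe's value and the lowest detected signal of each array, and a difference between 2 effects is bounded in the same way. List medians, ranges and figures use the fitted values.

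The members and the 46 gene lists were chosen with earlier results of these data known. Genes were named by a rule: the 12 largest rises and falls without overlap outside the muscle, pancreas and gut lists, the 4 largest of each of those lists, up to 5 called members of each other list, all measured bile acid synthesis genes, the 6 largest in each direction of both difference tests, and called genes within 10 places of Nr0b2. Further members named within a list complete its count and were chosen after their values were seen. Alternatives changed the arrays fitted, the background correction, the table, the detection filter, the probes, the variance trend and the replicate block. Duplicate differences of the groups had a correlation of -0.004, so the replicate numbers do not pair the arrays.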

Additional observations from a re-analysis of the deposited data

Results flagged for a closer look

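The effect of SHP loss differed between 5 and 3 weeks for 608 genes by limma's test of the difference itself, 317 higher and 291 lower. With background subtraction and median scaling 283 were higher and 350 lower. These values were flagged because that test passed. The differences below are 5 minus 3 weeks on the log2 scale, with n = 2 arrays in each of 4 groups. Of these genes 101 had a group in which neither array detected them, where only a bound can be given. Among pancreatic and gastric genes Tff2 was at 8.83 (detected on 1 of 2 wild-type arrays at 5 weeks) and Cela2a at 7.64, while Ctrb1 was at least 9.86, Reg1 at least 7.66, Zg16 at least 7.04 and Pnliprp1 at least 6.98. Cyp2b13 also passed but was detected in neither group at 5 weeks, so it has no value. Among the lowest were the muscle actin Acta1 at -2.61, Hamp2 at -2.29, Cyp2b10 at -2.12, Necap2, an endocytic adaptor, at -2.11 and Chrna4 at -2.02. Of the bile acid and steroid enzymes, Cyp7a1 was at 0.67, Cyp8b1 at -0.67 and Cyp17a1 at -0.64. The pancreas, gut and muscle markers moved between the groups in the same contrast, and age lies on its own slide, so age and slide cannot be told apart.

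The effect also differed between FXR-null and FXR-intact livers at 3 weeks for 875 genes, 446 higher and 429 lower. As FXR-null minus FXR-intact, Apoh was at least 8.49, Fbxw5 at least 5.89, Tff2 at 6.40, Mgst1 at 5.25, Serpina1e at 5.08 and Cyp17a1 at 2.51. Prap1 passed too but was detected in neither FXR-null group, so it has no value. Arrays of 1 group disagreed widely for Apoh, and the call of Fbxw5 at 3 weeks was lost without any of its 4 arrays. At the other end stood Chrna4 at -3.62, Dct at -3.49, the cytochromes Cyp2c39 and Cyp2c50 at -3.25 and -2.75, Thrsp at -2.49, Acta1 at -2.34, Cyp7a1 at -1.42 and Cyp8b1 at -0.91. The undetected Eif2s3y of the FXR-/- arrays stands beside all of these values, and its part in them was not tested.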

How the results depend on the processing

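The balance of higher and lower calls turned for both difference tests. The age difference had 317 higher and 291 lower calls, but 283 and 350 with background subtraction, 497 and 505 with the compared arrays alone, 508 and 528 without the double knockout, and 229 and 263 when detection on all 4 arrays was required. The FXR-null difference had 446 and 429, but 499 and 542 with every probe, 371 of 763 higher with detection on all 4 arrays, and 480 and 484 without double knockout replicate 2. At 3 weeks 525 and 487 became 279 and 280 without wild-type replicate 1 and 269 and 275 without SHP-/- replicate 2. None of the 162 called genes named by the rule changed sign at 3 weeks under the alternatives that tested them with 1 probe per gene. The 1012 called genes became 668 when the arrays of slide 1 alone were fitted, 1387 with the 4 compared arrays alone, 1487 without the double knockout, 765 of 15967 genes with no detection filter, 933 with plain background subtraction and 1002 in the authors' deposited log2 table, while leaving out 1 array gave 544 to 570. The 125 genes of at least 2-fold became 53 in the authors' table, for which the cause was not tested, and 69 when detection on all 4 arrays was required, while leaving out 1 array gave 124 to 131. Detection on all 4 arrays also left 4 pancreas, 4 gut and 5 muscle markers called, since fewer of them could be tested. With the replicate number as a replicate block, 944 genes were called at 3 weeks, 531 for the age difference and 804 for the FXR-null difference. The age difference gave 1002 calls with the compared arrays alone and 1036 without the double knockout, and 382 to 427 when 1 array was left out. The FXR-null difference gave 582 calls without FXR-/- replicate 2 and 1369 without double knockout replicate 1, the ends of its range when 1 array was left out, and the cause was not tested. Of 162 called genes named by the rule, 118 were called with the same sign under every alternative that tested them with 1 probe per gene. Only 140 of the 162 were tested where detection on all 4 arrays was required, and the setting with every probe was not judged gene by gene. The age difference could not be fitted on slide 1 alone, nor the FXR-null difference without the double knockout. With 2 arrays a group, the lone array left in a group is assumed to vary like the others, and signals near the negative controls give bounds only.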
